A study of Mus musculus with 19 samples.

Results

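Heat shock proteins and chaperones were followed through 6 stages of glial development in the mouse. The members are the probe sets whose single annotated gene symbol begins with Hsp, Dnaj, Bag or Pdia, names a subunit of the cytosolic chaperonin (Tcp1 or the Cct genes), or is Stip1, Calr or Canx. This choice used names only and no measured value. It gave 100 of 12488 probe sets, which stand for 68 genes, and 89 of them, for 63 genes, passed a filter on low values. Hspg2, the basement membrane proteoglycan perlecan, and Hspb11, an intraflagellar transport protein, share the name prefix without being chaperones, and they are kept apart.

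All samples are green fluorescent cells sorted from transgenic mice in which a glial promoter drives the reporter, first in crest stem cells and afterwards in glial cells. Trunk neural crest stem cells at E9.5 gave 3 arrays. The sciatic nerve gave Schwann cell precursors at E12 (3 arrays) and Schwann cells at E14 (3), E16 (4, labelled early Schwann cells), E18 (3) and P0 (3, newborns). No sample was treated, so each stage is set against an earlier one, and between E9.5 and E12 the body region changes together with the stage. The values are expression indices, a model-based intensity per probe set, and 68.5 served as a floor below which levels were not distinguished.

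The median index per array lay near that of the other arrays at all stages, and Sox10 and Erbb3, markers of crest and glia, were above the floor on every array, while S100b, a later glial marker, was at the floor at E9.5, E12, E14 and E16. Rank correlations within a stage were 0.928 or more, except at P0, where they were 0.894 to 0.935. P0 replicate 4 stood apart from the other 2 P0 arrays in most chaperone classes, so P0 results are given with and without it where it matters. For GAPDH, a control, the ratio of 3' to 5' signal, which grows as amplified RNA gets shorter, was 2.33 to 3.41 at E9.5, 3.18 to 4.53 at E12, 3.84 to 9.12 at E16 and 4.69 to 7.69 at P0. In sorted bulk RNA, fewer cells that express a gene and less RNA of it per cell cannot be told apart.

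Chaperones bind unfolded or newly made proteins and help them to fold, assemble or be degraded. Cytosolic Hsp70 works in cycles of ATP binding and release that are driven by J-domain proteins (Dnaj genes) and by nucleotide exchange factors such as the Bag and Hspa4 families, and it passes clients on to Hsp90. Some members are made at low level until stress activates heat shock factor, which binds the heat shock element, a run of inverted GAA units. Others serve the endoplasmic reticulum, where unfolded protein raises their transcription through the ER stress element, and others the mitochondrial matrix or the chaperonin TRiC, which folds actin and tubulin. Schwann cells make large amounts of membrane and secreted matrix protein from late embryonic life onwards.

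Promoter windows of the RefSeq table, from 250 bases before to 50 bases after the start site on GRCm38.p6, were found for 60 of the 68 genes. Some are shown as examples of the heat shock element and the ER stress element, whether or not the level of the gene changed. Each stretch shown ends just before the start site. In the first 2 lines the capitals mark GAANNTTC, a pair of inverted heat shock units, 104 bases before the start site. In the third they mark the heat shock element of 3 units (GAA, TTC and GAA with 2 bases between neighbours, or the reverse complement). The last 3 lines show the ER stress element in capitals (CCAAT and CCACG with 9 bases between them, or the reverse complement).
Hspa1a (chr17:34972157-34972356, minus strand): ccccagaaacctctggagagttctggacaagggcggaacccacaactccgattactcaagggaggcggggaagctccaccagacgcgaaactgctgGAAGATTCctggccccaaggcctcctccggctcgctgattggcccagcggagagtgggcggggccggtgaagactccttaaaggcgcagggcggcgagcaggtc
Hspa1b (chr17:34959239-34959438, minus strand): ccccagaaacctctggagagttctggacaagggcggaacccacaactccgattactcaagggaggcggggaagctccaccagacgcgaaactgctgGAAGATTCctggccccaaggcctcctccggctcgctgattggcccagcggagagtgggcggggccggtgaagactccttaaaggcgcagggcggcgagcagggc
Hspe1 (chr1:55087998-55088147, plus strand): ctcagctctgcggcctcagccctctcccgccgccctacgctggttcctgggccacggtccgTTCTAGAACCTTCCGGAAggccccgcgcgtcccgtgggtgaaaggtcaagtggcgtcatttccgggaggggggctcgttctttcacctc
Hspa5 (chr2:34771940-34772089, plus strand): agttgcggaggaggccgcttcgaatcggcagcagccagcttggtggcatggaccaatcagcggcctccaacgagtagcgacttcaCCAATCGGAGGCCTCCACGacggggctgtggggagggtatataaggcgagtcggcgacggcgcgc
Hsp90b1 (chr10:86705445-86705664, minus strand): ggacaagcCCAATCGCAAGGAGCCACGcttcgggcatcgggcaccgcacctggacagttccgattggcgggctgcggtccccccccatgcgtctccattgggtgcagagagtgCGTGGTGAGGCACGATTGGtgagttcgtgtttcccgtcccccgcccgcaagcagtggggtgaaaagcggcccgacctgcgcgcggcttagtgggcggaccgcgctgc
Dnajc3 (chr14:118937782-118937931, plus strand): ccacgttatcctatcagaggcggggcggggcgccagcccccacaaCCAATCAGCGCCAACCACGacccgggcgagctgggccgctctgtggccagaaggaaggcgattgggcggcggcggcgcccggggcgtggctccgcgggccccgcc

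The Hspa1a and Hspa1b windows differed at 4 of 300 bases, and their start sites lie 12918 bases apart. A pair of heat shock units (GAANNTTC or TTCNNGAA, each its own reverse complement) occurred in 5 of 6 inducible genes with a window (Bag3, Hspa1a, Hspa1b, Hspb1 and Hsph1), in 1 of 13 genes of the endoplasmic reticulum (Dnajc10) and in 17% of 27025 genes. It was also in 3 of 8 TRiC genes (Cct2, Cct5 and Cct6a), 2 of 5 mitochondrial ones (Hspd1 and Hspe1), 3 of 15 other J-domain ones (Dnaja1, Dnajb4 and Dnajb6), and in 15 of the 60 members in all (25%). The element of 3 units, which contains such pairs, was found in Hsph1, Hspd1, Hspe1 and Dnajb6, that is 4 of 60 members, against 0.662% of all genes. Hspd1 and Hspe1 are transcribed away from each other with start sites 216 bases apart, and they share that match. The ER stress element was found in 6 of 13 genes of the endoplasmic reticulum (Calr, Canx, Dnajc3, Hsp90b1, Hspa5 and Pdia6), in 0 other members and in 0.137% of all genes. Its second form, ATTGG and CCACG with 1 base between them, was found in Dnajb11 only among the members, and in 0.0444% of all genes. Neither form was found in Dnajc1, Dnajb9 or Dnajc10 of the endoplasmic reticulum. All these counts are of matching letters on both strands and do not show that a factor binds.

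Across the 6 stages 47 of the 89 tested probe sets changed by limma's moderated F-test, or 52.8%, against 29% of all 10414 probe sets tested. Over the 5 nerve stages alone 17 changed (19.1%), against 13.1% of all tested. The highest stage mean was at E9.5 for 37 of 89, against 25.1% of all tested, and the lowest was at P0 for 33, against 19.5% of all tested. By class, the 6-stage test called 10 of 13 probe sets of TRiC, 8 of 12 of constitutive Hsp70 and its partners, 6 of 7 inducible ones, 6 of 19 of the endoplasmic reticulum, 4 of 6 mitochondrial ones, 7 of 20 other J-domain ones, 2 of 7 BAG ones and 2 of 3 small heat shock ones. Some genes count more than once here, such as Hspa4 among the constitutive probe sets and Cct3 in TRiC. The 17 nerve calls were all among the 47: 5 in the endoplasmic reticulum, 4 inducible, 3 J-domain, 2 small heat shock, 1 each among constitutive, mitochondrial and name-only members, and 0 of 13 in TRiC.

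**Figure D1:**
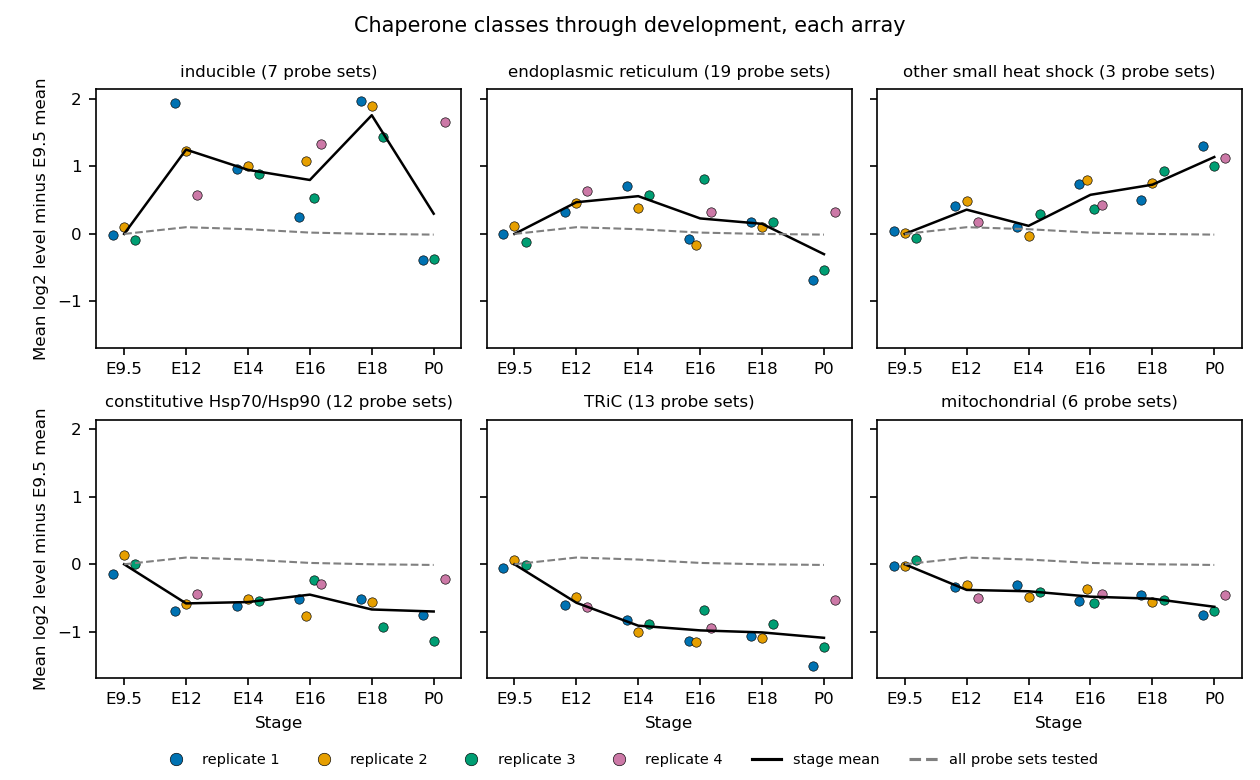
Mean log2 level of 6 chaperone classes on each array minus the E9.5 mean of the class (points, coloured by replicate number), with the stage mean (black line) and the same for all probe sets tested (dashed line). The TRiC mean is lower at each later stage, at -1.09 at P0, whereas the inducible class stood at 1.76 at E18 and P0 replicate 4 (1.66) lay far above the other P0 arrays (-0.39 and -0.37). Hspa1a and Hspa1b had the largest rises of the inducible class at E18, while Hsp90aa1 and Hsph1 were lower there than at E9.5.

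The class means differ in their course, and they are given here as descriptions with no test. Relative to E9.5, the mean log2 level of the 13 TRiC probe sets was -0.57, -0.91, -0.98, -1.01 and -1.09 over E12, E14, E16, E18 and P0. The mean of the 19 probe sets of the endoplasmic reticulum went the other way at first, to 0.47 at E12 and 0.56 at E14. It was then 0.23 at E16, 0.15 at E18 and -0.30 at P0. This mean does not stand for each member either. At E12 13 of the 19 had a positive fitted change, with a median of 0.24. Of the 19, 2 (Dnajb9 and Dnajc1) were called higher there (10.5%, against 14.1% of all tested called in either direction). The 7 inducible probe sets stood at 1.25, 0.95, 0.80, 1.76 and 0.30 over the same stages, and the 3 other small heat shock ones at 0.36, 0.12, 0.58, 0.73 and 1.14. The inducible mean does not stand for each member. From E9.5 to E18 the mean log2 level went from 6.2 to 12.25 for Hspa1a and from 6.24 to 11.51 for Hspa1b. For Hsp90aa1 it went from 12.91 to 12.24, and for Hsph1 from 11.32 to 10.71. The mean over all probe sets tested stayed within 0.10 of its E9.5 level at every stage.

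Hspa1a, the main inducible Hsp70, had an index of 57.6, 85.4 and 58.1 at E9.5, so 2 of 3 arrays were at the floor. It was 3938, 1155 and 277 at E12, 1004, 1603 and 963 at E14, 864, 2847, 783 and 2981 at E16, 5566, 5327 and 3902 at E18, and 647, 331 and 5972 at P0. Every nerve array was above every crest array, but the E12 arrays differed widely among themselves, and 1 P0 array was above the E18 arrays while the others were far below them. At E12 it was at least 14.6-fold higher than at E9.5 (log2 change 3.87, SE 0.93, adjusted p = 0.0092), by 5.84 within lot 1 and 3.76 within lot 2 on the log2 scale. Without E12 replicate 4 the fold was 28.9, and without E12 replicate 1 its adjusted p was 0.063, from 0.00012 to 0.063 over its alternatives. At P0 against E12 the log2 change was 0.01 (SE 0.93, adjusted p = 1), made of -2.61 within lot 1 and 4.43 within lot 4.

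Hspa1b, its near-identical neighbour, was 34.0, 91.9 and 37.7 at E9.5, 1387, 294 and 131 at E12, 503, 743 and 499 at E14, 582, 1886, 556 and 1928 at E16, 3715, 2836 and 2334 at E18, and 288, 76.1 and 3501 at P0. The same arrays were high and low as for Hspa1a, and because the coding sequences of both genes are nearly the same their probe sets may share signal. Hspa1b was called by the 6-stage F-test (adjusted p = 0.014) but not at E12 against E9.5 (log2 change 2.32, SE 1.02, adjusted p = 0.16).

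Bag3, a nucleotide exchange factor that directs Hsp70 clients to autophagy, had 2 probe sets. On 161980_f_at it read 457, 420 and 359 at E9.5, 1424, 1642 and 1217 at E12, 979, 660 and 684 at E14, 271, 416, 517 and 669 at E16, 812, 744 and 999 at E18, and 196, 488 and 822 at P0. All E12 arrays lay above all other arrays. It was 3.46-fold higher at E12 than at E9.5 (log2 change 1.79, SE 0.39, adjusted p = 0.005), and 3.31-fold lower at P0 than at E12 (log2 change -1.73, SE 0.39, adjusted p = 0.0064). The other probe set, 96167_at, read 407, 512 and 506 at E9.5, 969, 1305 and 1295 at E12, 502, 611 and 528 at E14, 305, 393, 294 and 812 at E16, 908, 877 and 586 at E18, and 271, 429 and 933 at P0. It moved by 1.32 and -1.31 on the log2 scale (SE 0.39 each, adjusted p = 0.032 and 0.031). Its first call was lost without any 1 of the 6 arrays compared (adjusted p = 0.052 to 0.11). Its second was lost without E12 replicate 2 or 4 or P0 replicate 1 or 3 (adjusted p = 0.088 to 0.16). With the GAPDH 3'/5' signal as a covariate the P0 calls of both probe sets were lost (adjusted p = 0.063 on 161980_f_at and 0.25 on 96167_at).

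Hsp90aa1, the inducible form of cytosolic Hsp90, ran against these genes. Its index was 7603, 7646 and 7802 at E9.5, 6304, 6344 and 6124 at E12, 5469, 5250 and 4677 at E14, 3325, 4376, 3974 and 3984 at E16, 5478, 5119 and 4023 at E18, and 1642, 2345 and 3692 at P0. Crest arrays were the highest, the E12 arrays came next, and the P0 arrays lay below all E12 and E14 arrays. At P0 it was 2.58-fold lower than at E12 (log2 change -1.37, SE 0.22, adjusted p = 0.00035) and 3.17-fold lower than at E9.5 (log2 change -1.67, SE 0.22, adjusted p = 2.4e-05). With only E12 and P0 in the fit the first call was lost (adjusted p = 0.077). A second Hsp90aa1 probe set, 161869_i_at, was above the floor on fewer than 3 arrays and was not tested.

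Hsph1, an Hsp110 that exchanges nucleotide on Hsp70, read 2336, 2791 and 2544 at E9.5, 2605, 2067 and 1344 at E12, 1555, 1410 and 1318 at E14, 823, 1084, 1038 and 1265 at E16, 2185, 1875 and 1137 at E18, and 394, 603 and 979 at P0. The P0 arrays lay below those of E12 and of E9.5. The log2 change at P0 was -1.65 against E12 (SE 0.31, adjusted p = 0.0014) and -2.05 against E9.5 (SE 0.31, adjusted p = 0.0001). The call against E12 was lost with only E12 and P0 in the fit (adjusted p = 0.098). Dnajb1, the J-domain partner of inducible Hsp70, was not called: it read 407, 323 and 264 at E9.5, 666, 285 and 237 at E12, 347, 264 and 481 at E14, 201, 307, 352 and 294 at E16, 529, 731 and 289 at E18, and 163, 152 and 377 at P0. Hspb1, the inducible small heat shock protein Hsp27, was at the floor on all 19 arrays.

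**Figure D2:**
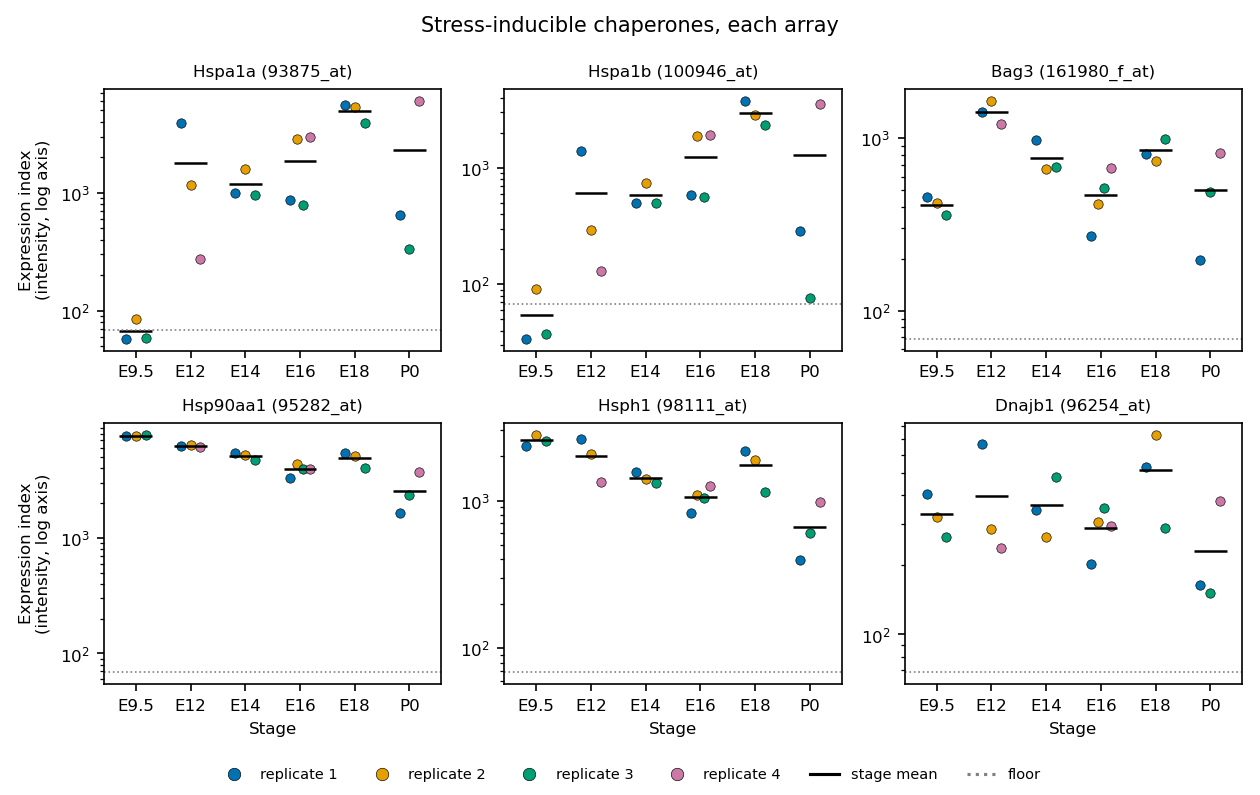
Expression index (log axis) of 6 inducible probe sets on each array by stage, coloured by replicate number, with the stage mean of the index as a black bar and the floor as a dotted line. Hspa1a and Hspa1b were near the floor at E9.5 and were highest on P0 replicate 4 or the E18 arrays, while Hsp90aa1 was highest at E9.5, at 7603 to 7802.

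The immediate early genes, which answer many stimuli including tissue handling, moved with Hspa1a between crest and nerve. Of 17 tested probe sets of that list 9 rose and 0 fell at E12 against E9.5, where 9.7% of all tested rose, and 15 rose at P0 against E9.5, where 12.1% of all tested rose. Summed over the list's 14 genes, the index was 5950 to 7710 at E9.5, 17100 to 32100 at E12, 30900 to 39100 at E14, 27400 to 43100 at E16, 34300 to 49000 at E18 and 31300 to 39000 at P0. Of the 17, 9 were highest on replicate 4 among the P0 arrays, and the matching share of all tested probe sets is not given here. The mean over all tested probe sets was also highest on that array (0.18 relative to E9.5, against -0.13 and -0.09). On the P0 arrays Hspa1a read 647, 331 and 5972. Junb, a component of the AP-1 factor, read 609, 238 and 1630 on them (102362_i_at), and Egr1, a zinc finger factor, 2830, 1790 and 4840 (98579_at), while Fos, another AP-1 component, read 7140, 5290 and 6970. Atf3 (104155_f_at) and Jund, also of the list, were highest on replicate 3, at 2590, 4970 and 3300 and at 5050, 6140 and 4040. At E12, where Hspa1a read 3938, 1155 and 277, the order differed. Egr1 read 2790, 721 and 2800 on those arrays, and Junb 397, 209 and 591. The part of handling in the Hspa1a level was not tested.

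E12 against E9.5 compares nerve precursors with crest cells of the trunk. Of the 89 probe sets 16 changed, 8 higher and 8 lower (18%), and 14.1% of all tested probe sets did (9.7% higher, 4.41% lower). Besides Hspa1a and Bag3, the rises were those of Dnajb9 and Dnajc1 of the endoplasmic reticulum, Dnajb4, a cytosolic J-domain protein (1.76-fold, adjusted p = 0.012), Hspb2, and Hspa4l, an Hsp110 relative (at least 1.56-fold, adjusted p = 0.039). The Hspa4l call was lost without any 1 of the 6 arrays compared (adjusted p = 0.062 to 0.12) and under a floor at the 40th percentile (1), and that of Dnajb4 without E9.5 replicate 3 (0.057) or E12 replicate 1 (0.077). The falls were those of Hspa4 on 4 probe sets, Cct3 on 2, Hspd1 and Dnajc2. The count was 5 without E9.5 replicate 2 and 5 without E12 replicate 1, 8 without E9.5 replicate 3 and 10 without E12 replicate 4, so it rests on few arrays. Of the 16 calls 13 were lost without at least 1 single array, and 3 (Dnajc1, Dnajb9 and Bag3 on 161980_f_at) held under every alternative run.

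**Figure D3:**
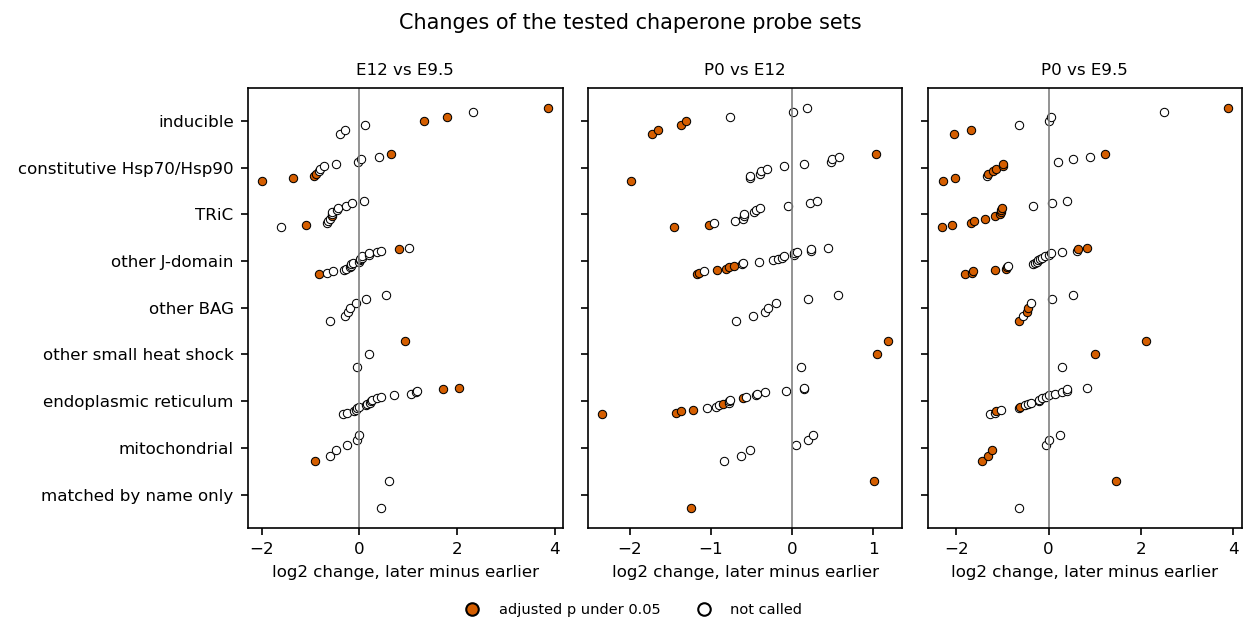
Fitted log2 change of each tested probe set (points), by class, for E12 against E9.5, P0 against E12 and P0 against E9.5, filled where limma's adjusted p was under 0.05. In the third panel 10 of 13 TRiC points are filled and all of these lie below 0, while in the second 6 of 19 points of the endoplasmic reticulum are filled, all below 0.

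Among proteins of the endoplasmic reticulum, Dnajc1 had the smallest p over the 6 stages. It is a J-domain protein of the reticulum membrane that binds ribosomes. Its index on 103344_at was 446, 463 and 476 at E9.5, 1643, 1649 and 1299 at E12, 688, 497 and 606 at E14, 309, 271, 372 and 301 at E16, 374, 310 and 513 at E18, and 294, 251 and 366 at P0. The E12 arrays stood above all others, with no overlap. The level was 3.30-fold higher at E12 than at E9.5 (log2 change 1.72, SE 0.20, adjusted p = 1.4e-05), 2.57-fold lower at E14 than at E12 (log2 change -1.36, SE 0.20, adjusted p = 0.00071), and 5.06-fold lower at P0 than at E12 (log2 change -2.34, SE 0.20, adjusted p = 4.5e-07). Within lots the rise at E12 was 1.88 and 1.83 on the log2 scale. The call at E12 held under each of its 30 alternatives. A second Dnajc1 probe set, 94800_at, lay between 39.3 and 164 and was not called.

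Dnajb9, a cofactor of the reticulum's Hsp70 that is induced by unfolded protein, read 335, 292 and 179 at E9.5, 1214, 964 and 1070 at E12, 1282, 1102 and 1169 at E14, 401, 448, 733 and 563 at E16, 814, 1102 and 777 at E18, and 375, 315 and 831 at P0. The E12 and E14 arrays were the highest, with 1 E18 array among them. It was 4.15-fold higher at E12 than at E9.5 (log2 change 2.05, SE 0.32, adjusted p = 0.00027) and 2.33-fold lower at P0 than at E12 (log2 change -1.22, SE 0.32, adjusted p = 0.014). The second call was lost without E12 replicate 1, P0 replicate 1 or P0 replicate 3 (adjusted p = 0.058 to 0.083) and under the GAPDH covariate (0.12). Its other probe set, 96679_at, had values under the floor and was not tested.

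Dnajc10, a reductase that helps to clear misfolded protein from the reticulum, read 767, 917 and 651 at E9.5, 892, 798 and 1069 at E12, 1121, 733 and 1044 at E14, 718, 559, 949 and 626 at E16, 589, 530 and 425 at E18, and 344, 291 and 437 at P0. All P0 arrays lay below all E9.5 and E12 arrays. Relative to E12 it was 2.59-fold lower at P0 (log2 change -1.37, SE 0.23, adjusted p = 0.00055). Pdia5, a disulfide isomerase, read 230, 354 and 278 at E9.5, 439, 772 and 595 at E12, 603, 520 and 481 at E14, 576, 576, 620 and 293 at E16, 154, 216 and 295 at E18, and 440, 110 and 212 at P0. P0 and E12 overlapped on 1 array, with a log2 change of -1.43 (SE 0.41, adjusted p = 0.024), a call lost without E12 replicate 2 or 4 or P0 replicate 3 (adjusted p = 0.061 to 0.13).

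Hsp90b1, the Hsp90 of the reticulum, read 3552, 4623 and 4447 at E9.5, 4036, 4908 and 5804 at E12, 5389, 6298 and 5201 at E14, 4009, 4661, 5800 and 5905 at E16, 5343, 4457 and 3936 at E18, and 1710, 2973 and 3885 at P0. P0 was 1.80-fold lower than E12 (log2 change -0.85, SE 0.25, adjusted p = 0.029). That call was lost without E12 replicate 2 or 4 or P0 replicate 1 or 3 (adjusted p = 0.053 to 0.15) and with the GAPDH covariate (0.27). Hspa5, the Hsp70 of the reticulum, read 2967, 3298 and 3574 at E9.5, 3425, 3587 and 3968 at E12, 4167, 4328 and 3638 at E14, 3524, 3385, 4481 and 4090 at E16, 4080, 3735 and 3462 at E18, and 2120, 1839 and 3537 at P0. Its log2 change at P0 against E12 was -0.61 (SE 0.20, adjusted p = 0.045), with P0 replicate 4 inside the E12 range, and the call was lost under 20 of 30 alternatives, among them leaving out any 1 of 16 arrays (adjusted p up to 0.36).

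**Figure D4:**
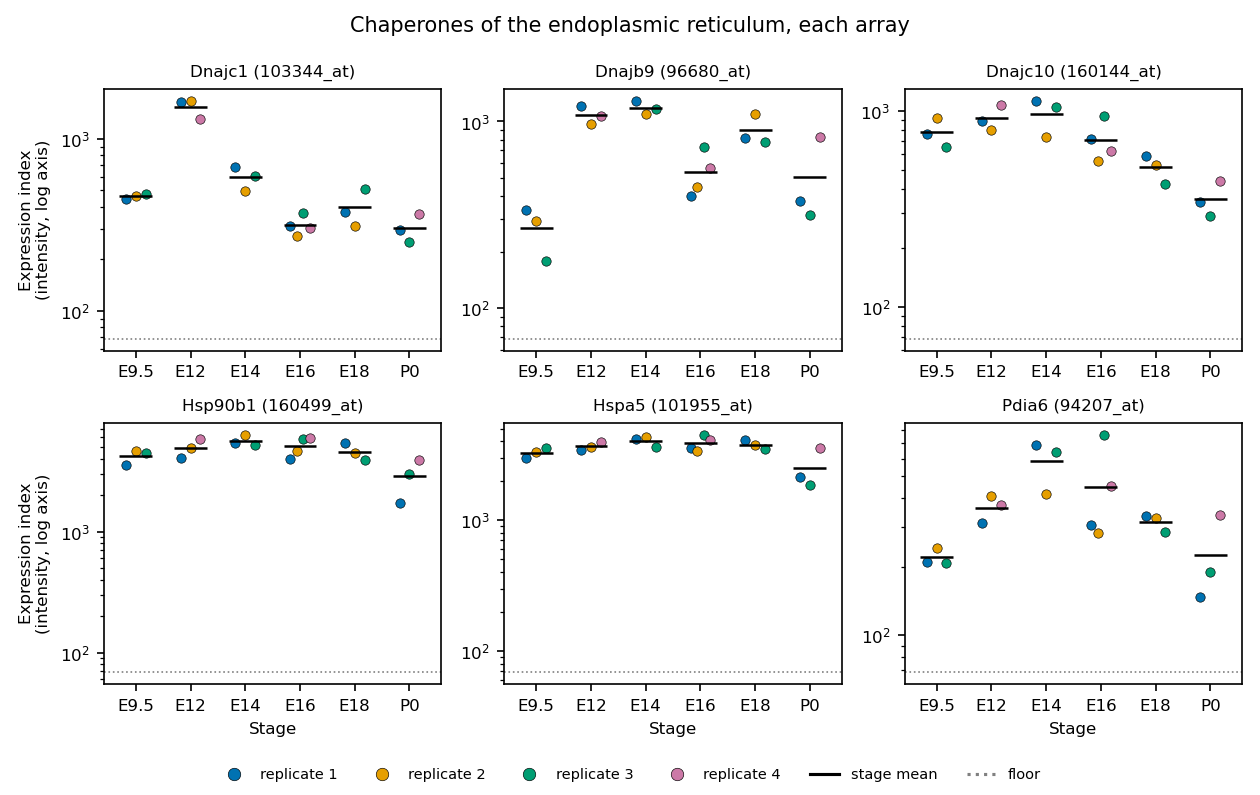
Expression index (log axis) of 6 probe sets for proteins of the endoplasmic reticulum on each array by stage, with the stage mean of the index as a black bar and the floor as a dotted line. Dnajc1 stands highest at E12 (1299 to 1649) and Dnajb9 at E12 and E14, while Hspa5 and Hsp90b1 change little until P0.

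The lectin chaperones Calr and Canx were not called in any test over the stages. Pdia6, another disulfide isomerase, had 3 probe sets that did not agree in their course: 94207_at was called over the 6 stages (adjusted p = 0.018), with its lowest value at P0 (148) and its highest at E16 (763), and 94209_g_at and 94208_at were not (adjusted p = 0.36 and 0.52). Outside the members, 7 of 25 tested probe sets for the unfolded protein response and folding in the reticulum rose at E12 against E9.5 and 0 fell, where 9.7% and 4.41% of all tested did. The 3 largest were Erp29, a folding factor (log2 change 1.53, SE 0.33, adjusted p = 0.0047, on 98076_at, and -0.09, SE 0.16, on 161755_at), Ppib, a prolyl isomerase (1.00, SE 0.28, adjusted p = 0.025), and Eif2ak3, the stress kinase PERK (1.00, SE 0.31, adjusted p = 0.043). At P0 against E12, 0 rose and 3 of 25 fell (Uggt1, P4hb and Erp44), a share like the 11.8% of all tested. The P4hb call was on 93108_at, which read 99.6, 109 and 137 at E12 and 36.5, 82.5 and 76.6 at P0, partly under the floor. Its other probe set, 161926_r_at, went the other way, from 1510, 1690 and 1510 to 4070, 2610 and 1860.

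The chaperonin TRiC was lowest late in the series. Cct8 read 3217, 3871 and 3522 at E9.5, 1985, 2075 and 2765 at E12, 1325, 1404 and 1923 at E14, 1171, 678, 1308 and 1482 at E16, 1373, 1307 and 1116 at E18, and 594, 532 and 1770 at P0. The crest arrays lay above every nerve array. At P0 it was 4.28-fold lower than at E9.5 (log2 change -2.10, SE 0.36, adjusted p = 0.00036) and 2.73-fold lower than at E12 (adjusted p = 0.011). The second call was lost without P0 replicate 1 or 3 (adjusted p = 0.058 and 0.068), and both were lost under the GAPDH covariate (0.16 against E9.5 and 0.11 against E12). Cct4 read 3608, 4203 and 4116 at E9.5, 2430, 2638 and 2854 at E12, 2155, 1754 and 2364 at E14, 1690, 1623, 2342 and 2236 at E16, 1868, 1674 and 1944 at E18, and 797, 1232 and 2251 at P0, with a log2 change at P0 of -1.61 against E9.5 (SE 0.27, adjusted p = 0.00028, and 0.1 with the GAPDH covariate). Again no nerve array reached a crest array.

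Cct3 had 3 probe sets, all lower at P0 than at E9.5. On 161238_f_at it read 1157, 1114 and 1044 at E9.5, 792, 939 and 570 at E12, 660, 535 and 591 at E14, 537, 662, 533 and 574 at E16, 467, 540 and 619 at E18, and 522, 554 and 552 at P0, a log2 change at P0 against E9.5 of -1.02 (SE 0.17, adjusted p = 0.00025). The changes on 98153_at and 98446_s_at were -1.69 (SE 0.33) and -2.31 (SE 0.54), so the probe sets differed in size but not in direction. With the GAPDH covariate the call held on 161238_f_at and was lost on the other 2 (adjusted p = 0.053 and 0.73). Without P0 replicate 4 the fall on 98446_s_at was 7.82-fold. Cct5 (2 probe sets), Cct6a, Cct7 and Tcp1 fell as well, by log2 changes of -1.01 to -1.38, and with the GAPDH covariate these calls were lost too (adjusted p = 0.17 to 0.68). Without P0 replicate 1 the calls of Cct5 on 161514_at and of Cct7 were lost (adjusted p = 0.051 and 0.052). Cct2 and a second probe set each of Cct6a and Tcp1, both near the floor, were not called. The log2 change at E12 against E9.5 was -0.56 at the median of the 13 (0.01 over all tested), and -0.56 and -0.50 within lots 1 and 2.

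Mitochondrial chaperonins were also highest at E9.5, on 1 of 2 probe sets for Hspd1. Hspd1, the matrix chaperonin Hsp60, read 5700, 6574 and 6461 at E9.5, 3326, 3661 and 2977 at E12, 2158, 2399 and 2449 at E14, 2741, 2364, 1950 and 2668 at E16, 3542, 3243 and 2544 at E18, and 1983, 1591 and 3862 at P0. Its arrays at E9.5 did not overlap with any later ones, and it was 1.88-fold lower at E12 (log2 change -0.91, SE 0.25, adjusted p = 0.019), a call lost without E9.5 replicate 2 or 3 or E12 replicate 1 or 4 (adjusted p = 0.057 to 0.068) and with the GAPDH covariate (0.062). A second probe set, 161140_r_at, did not show this: it read 216, 173 and 202 at E9.5, 390, 331 and 289 at E14 and 210, 231 and 158 at P0, and it was 1.76-fold higher at E14 than at E12 (adjusted p = 0.0093, and 0.059 without E14 replicate 1). Hspe1, its co-chaperonin Hsp10, read 4580, 4574 and 4961 at E9.5, 3798, 3176 and 2550 at E12, 2900, 2038 and 2557 at E14, 2750, 3859, 1906 and 2046 at E16, 2611, 2357 and 2640 at E18, and 2160, 1532 and 2491 at P0. P0 was 2.33-fold lower than E9.5 (log2 change -1.22, SE 0.24, adjusted p = 0.0013).

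Hspa9, the mitochondrial Hsp70, read 2615, 3286 and 2604 at E9.5, 2002, 2323 and 1756 at E12, 2019, 1353 and 1493 at E14, 872, 978, 1623 and 1819 at E16, 1373, 1371 and 1718 at E18, and 695, 1087 and 1886 at P0. It was 2.50-fold lower at P0 than at E9.5 (adjusted p = 0.005, and 0.52 with the GAPDH covariate). Dnaja3, its J-domain partner, and Dnajc11, a protein of the cristae organising complex, were not called.

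**Figure D5:**
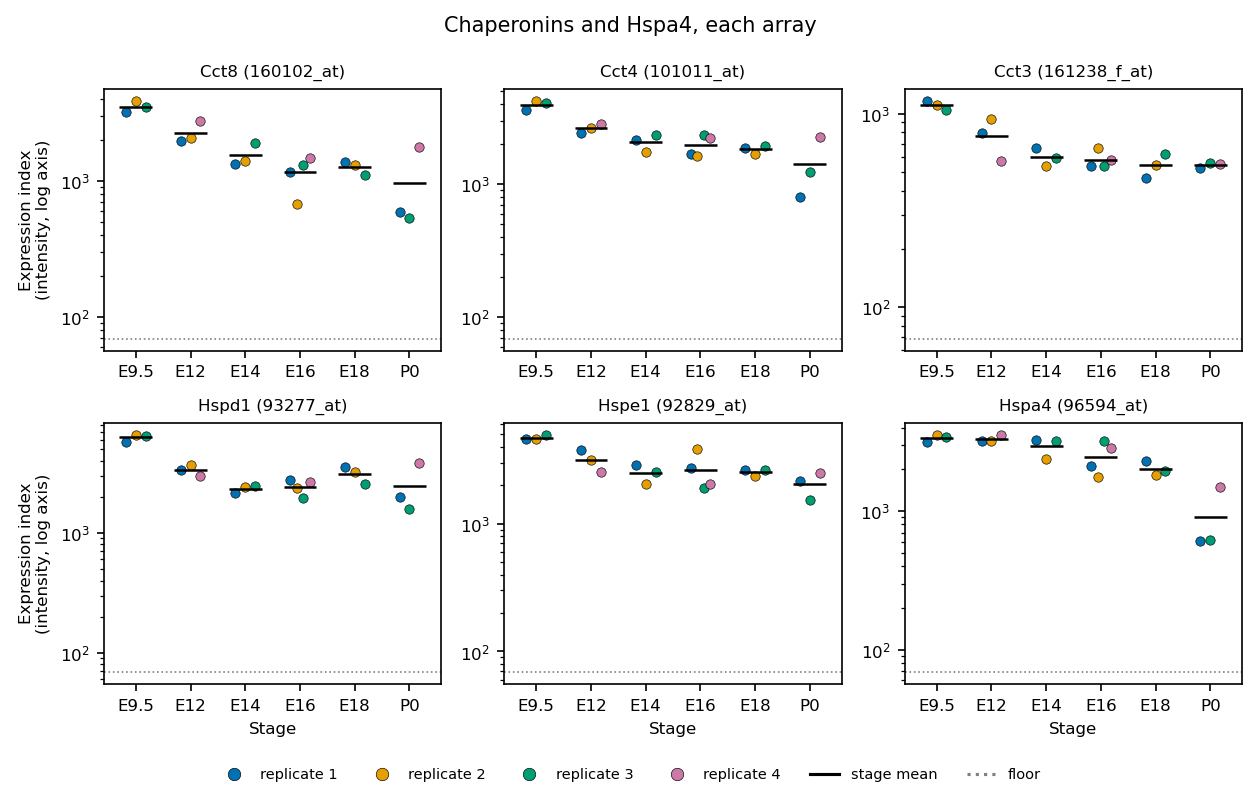
Expression index (log axis) of Cct8, Cct4 and Cct3 of TRiC, Hspd1 and Hspe1 of the mitochondrial chaperonin, and Hspa4, on each array by stage, with the stage mean of the index as a black bar and the floor as a dotted line. The E9.5 arrays lie above all nerve arrays for Cct8, Cct4, Cct3, Hspd1 and Hspe1, whereas Hspa4 on this probe set keeps its level to E12.

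Hspa4, an Hsp110 that exchanges nucleotide on constitutive Hsp70, had 5 probe sets with different courses. On 96594_at it read 3163, 3548 and 3417 at E9.5, 3187, 3190 and 3511 at E12, 3229, 2377 and 3179 at E14, 2110, 1748, 3204 and 2829 at E16, 2279, 1806 and 1936 at E18, and 609, 621 and 1500 at P0. Crest and E12 arrays overlapped, and P0 was 3.98-fold lower than E12 (log2 change -1.99, SE 0.29, adjusted p = 0.00016). That call was lost with only E12 and P0 in the fit (adjusted p = 0.057). On 92571_at it read 1604, 2135 and 1957 at E9.5, 967, 1101 and 902 at E12, 771, 568 and 677 at E14, 792, 505, 849 and 764 at E16, 706, 612 and 565 at E18, and 747, 546 and 1077 at P0, and it fell already at E12 (log2 change -0.93, SE 0.23, adjusted p = 0.012, and 0.059 without E9.5 replicate 2). The other 3 (161745_f_at, 100352_at and 100353_g_at) were also lower at E12 than at E9.5, by log2 changes of -0.89 to -1.98, and each of these calls was lost without at least E9.5 replicate 2 (adjusted p = 0.068 to 0.095). All 5 probe sets were lower at P0 than at E9.5, of which the call on 100352_at was lost without E9.5 replicate 2 or P0 replicate 3 (adjusted p = 0.072 and 0.07). With the GAPDH covariate these P0 calls were lost on 92571_at, 100352_at and 100353_g_at (adjusted p = 0.12, 0.34 and 0.66). The E12 calls on 92571_at and 100353_g_at were lost with it too (0.054 and 0.079).

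Hspa8, the constitutive Hsp70 of the cytosol, read 4388, 4512 and 4704 at E9.5, 3583, 3166 and 3108 at E12, 2943, 3634 and 3221 at E14, 2438, 3105, 3656 and 3589 at E16, 4170, 4163 and 3007 at E18, and 1773, 1635 and 4118 at P0. It was 1.98-fold lower at P0 than at E9.5 (log2 change -0.99, SE 0.27, adjusted p = 0.011) and was not called over the 6 stages (adjusted p = 0.12). The first call was lost without P0 replicate 1 or 3 (adjusted p = 0.055 and 0.068) and with the GAPDH covariate (0.5). Hspa4l rose through the series: it read 72.3, 81.0 and 54.5 at E9.5, 111, 120 and 115 at E12, 169, 128 and 193 at E14, 141, 120, 218 and 180 at E16, 149, 181 and 169 at E18, and 157, 190 and 169 at P0, at least 2.33-fold higher at P0 than at E9.5 (adjusted p = 0.00022). With the floor at the 40th percentile that adjusted p was 0.1. Hspa14, a ribosome-associated Hsp70, was 2.19-fold lower at P0 than at E9.5, with 140, 89.4 and 216 at P0 and 274, 304 and 342 at E9.5 (adjusted p = 0.0072, and 0.7 with the GAPDH covariate). Hspa2, at the floor at E9.5, was called over the 6 stages (adjusted p = 0.012) and read 172, 220 and 282 at E14, its highest stage.

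Among the other J-domain proteins Dnajc2, which sits on the ribosome and helps nascent chains to fold, fell on both of its probe sets. On 104738_at it read 707, 851 and 1061 at E9.5, 435, 599 and 437 at E12, 285, 240 and 299 at E14, 370, 213, 284 and 280 at E16, 241, 223 and 166 at E18, and 294, 185 and 378 at P0. On 101890_f_at it read 665, 737 and 968 at E9.5, 457, 521 and 510 at E12, 339, 304 and 309 at E14, 240, 147, 301 and 318 at E16, 241, 224 and 181 at E18, and 164, 192 and 356 at P0. On both, the crest arrays lay above all nerve arrays, and P0 was 3.14-fold and 3.48-fold lower than E9.5 (log2 changes -1.65 and -1.80, SE 0.26 and 0.29, adjusted p = 0.00015 and 0.00017). With the GAPDH covariate the call on 101890_f_at was lost (adjusted p = 0.079).

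Dnaja1, a partner of constitutive Hsp70, read 838, 780 and 1462 at P0, against 2444, 2093 and 2128 at E12 and 2239, 2594 and 1789 at E9.5. It was 2.25-fold lower at P0 than at E12 (adjusted p = 0.0082, and 0.063 with the GAPDH covariate). Dnajb6, a suppressor of protein aggregation, read 776, 601 and 1218 at P0, against 1524, 1225 and 1350 at E12 and 1488, 1744 and 1432 at E9.5 (log2 change -0.72 for P0 against E12, SE 0.21, adjusted p = 0.03). Its second probe set, 104625_at, was not called. Dnajc8, a factor bound to the splicing machinery, and Dnajc13, an endosomal coat regulator, were also lower at P0 than at E12, by log2 changes of -0.93 and -0.78 (SE 0.27 and 0.23, adjusted p = 0.028 and 0.029). The 3 calls of Dnajb6, Dnajc8 and Dnajc13 were each lost without 1 of several E12 or P0 arrays, with adjusted p up to 0.16, 0.15 and 0.15. They were also lost with the GAPDH covariate (adjusted p = 0.16, 0.26 and 0.2). Dnajc9, a histone chaperone, read 287, 507 and 1065 at P0, against 1313, 1744 and 2008 at E9.5 (adjusted p = 0.006, and 0.81 with the GAPDH covariate).

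Dnajb4 was higher in the nerve, with 453, 340 and 489 at P0 and 537, 345 and 387 at E12, against 292, 223 and 201 at E9.5. Both nerve stages lay above the crest arrays without overlap. In the BAG family 2 genes were called at P0 against E9.5, with small changes. These were Bag2, a regulator of the Hsp70 ubiquitin ligase partner, with log2 changes of -0.44 and -0.63 on 2 of 3 probe sets, and Bag6, which guides tail-anchored membrane proteins, with -0.47 on 1 of 3 tested. Both Bag2 calls were lost without any 1 of several E9.5 or P0 arrays (adjusted p up to 0.085 and 0.2), and those of both genes with the GAPDH covariate.

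The small heat shock protein Hspb2, known from muscle, took the opposite course to TRiC. On 103215_g_at it read 174, 178 and 174 at E9.5, 320, 445 and 268 at E12, 193, 186 and 240 at E14, 358, 423, 312 and 386 at E16, 399, 475 and 849 at E18, and 574, 756 and 1018 at P0. The P0 arrays lay above all arrays of E16 and earlier stages. It was 4.35-fold higher at P0 than at E9.5 (log2 change 2.12, SE 0.26, adjusted p = 1.5e-05) and 2.26-fold higher than at E12 (adjusted p = 0.0055). On 103214_at it read 62.5, 76.8 and 53.0 at E9.5, 54.9, 63.1 and 69.3 at E12, 56.0, 54.7 and 87.0 at E14, 123, 109, 72.7 and 99.5 at E16, 105, 118 and 132 at E18, and 176, 119 and 140 at P0, at least 2.08-fold higher at P0 than at E12 (adjusted p = 0.00096). Cryab, a small heat shock protein outside the naming rule and the chromosomal neighbour of Hspb2, read 797, 2250 and 2450 at P0 against 84.2, 68.2 and 65.8 at E9.5 on 162308_f_at (log2 change 4.48, SE 0.43, adjusted p = 1e-06), while its other probe set, 93279_at, was under the floor on all arrays. Muscle markers summed to 2440 to 3300 at E9.5, 2890 to 4200 at E12 and 2510 to 3780 at P0, and Tnnc1 was at the floor in each.

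P0 against E12 spans the course within the nerve. Of the 89 probe sets 24 changed, 4 higher and 20 lower (27%), against 16.4% of all tested (4.53% higher, 11.8% lower). The falls were 6 of 19 in the endoplasmic reticulum, 6 of 20 J-domain, 4 of 7 inducible, 2 of 13 in TRiC and 1 of 12 constitutive, besides Hspb11, and 0 among BAG and mitochondrial members. The 4 rises were both probe sets of Hspb2, Hspbp1, an exchange factor for Hsp70 (2.04-fold, adjusted p = 0.032), and Hspg2. The Hspbp1 call was lost without E12 replicate 1 or 2 or P0 replicate 1 (adjusted p = 0.075 to 0.17), and that of Hspg2 without E12 replicate 1 or 4 or P0 replicate 3 or 4 (0.065 to 0.11). The median log2 change was -0.45 over the members and -0.02 over all tested. The count depended on single P0 arrays: it was 40 (3 higher, 37 lower) without replicate 4, 11 without replicate 3 and 13 without replicate 1, and 15 without E12 replicate 2 or E12 replicate 4. For these settings the share of all tested probe sets is not given here. With the GAPDH signal as a covariate the count was 13, and the share of all tested with it is not given here either. Of the 24 calls 14 were lost with that covariate and 14 without at least 1 single array. With only E12 and P0 in the fit, which leaves fewer residual degrees of freedom, 21 were lost. The 2 calls that held under every alternative run were those of Dnajc1 and Dnajc10.

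P0 against E9.5 compares the last stage with the first. Of the 89 probe sets 40 changed, 7 higher and 33 lower (44.9%), against 28% of all tested (12.1% higher, 15.9% lower). The falls were 10 of 13 in TRiC, 7 of 12 constitutive, 6 of 20 J-domain, 3 of 6 mitochondrial, 3 of 7 BAG, 2 of 19 in the endoplasmic reticulum and 2 of 7 inducible. By gene these were 7 in TRiC, 5 J-domain, 3 mitochondrial, 3 constitutive (Hspa4, Hspa8 and Hspa14) and 2 in each of the others. The rises were those of Hspa1a (at least 14.7-fold, adjusted p = 0.0047), Hspa4l, Dnajb4, Dnajb3, a J-domain protein best known from testis (1.56-fold, adjusted p = 0.015), Hspb2 on both probe sets, and Hspg2. Without P0 replicate 4 the rise of Hspa1a was 6.28-fold (adjusted p = 0.019), without P0 replicate 3 it was 26.7-fold (0.0021), and with the GAPDH covariate its call was lost (0.073). The Dnajb3 call was lost without E9.5 replicate 2 (0.088) or P0 replicate 3 (0.081). With the GAPDH covariate the calls of Dnajb3 (0.11) and Dnajb4 (0.21) were lost. With the GAPDH signal as a covariate 13 were called, 5 higher and 8 lower, and the share of all tested probe sets with it is not given here. That signal was higher on each P0 array (4.69 to 7.69) than on any E9.5 array (2.33 to 3.41), so signal and stage cannot be fully told apart. Of the 40 calls 29 were lost with the covariate and 9 without at least 1 single array. With only E9.5 and P0 in the fit 26 were lost. Among the 40, 8 held under every alternative run: Hsp90aa1, Hsph1, Hspa4 on 96594_at, Cct3 on 161238_f_at, Dnajc2 on 104738_at, Hspe1, Hspb2 on 103215_g_at and Hspg2. The part of RNA length in these falls was not tested further. Partners of the response outside the naming rule moved alike: 9 of 13 tested probe sets fell and 2 rose. Ppid, a cyclophilin that joins Hsp90 complexes (log2 change -2.42, SE 0.26, adjusted p = 3.5e-06), and Fkbp4, another immunophilin (-3.17, SE 0.58, adjusted p = 0.00058, on 92809_r_at), fell most. On that probe set P0 replicate 1 was under the floor (59.6). The brighter Fkbp4 probe set, 92808_f_at, read 3480, 4040 and 4690 at E9.5 and 2840, 822 and 1430 at P0.

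The intervals between neighbouring nerve stages held few calls. At E14 against E12, 2 probe sets changed (Dnajc1 lower and Hspd1 on 161140_r_at higher), against 2.09% of all tested (1.08% higher, 1.02% lower). At E16 against E14 the same 2 were lower, against 1.69% of all tested (0.586% higher, 1.1% lower), and both calls were lost without E14 replicate 1 (adjusted p = 0.095 for Dnajc1 and 0.11 for Hspd1). At E18 against E16 limma called 0 members, against 0.0768% of all tested (0.0096% higher, 0.0672% lower), although 5 were higher and 6 lower at an unadjusted p under 0.05. All 7 inducible probe sets had a positive fitted change there, with a median log2 change of 0.91, and a negative one at P0 against E18, with a median of -1.19. At P0 against E18 limma called 0, against 0.125% of all tested (0.0384% higher, 0.0864% lower), with 4 higher and 14 lower at an unadjusted p under 0.05, and 19 (all lower) without P0 replicate 4. The shares of all tested probe sets without that array or at an unadjusted p are not given here. These counts are therefore not read as particular to chaperones.

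The divergence of P0 replicate 4 was largest in the inducible class, with a mean of 1.66 relative to E9.5 against -0.39 and -0.37 on replicates 1 and 3. In the endoplasmic reticulum it was 0.33 against -0.68 and -0.54, and in TRiC -0.53 against -1.51 and -1.23. The mean over all probe sets tested was 0.18 against -0.13 and -0.09. Its GAPDH 3'/5' signal was 4.69, against 7.69 and 6.80. Small heat shock probe sets did not split this way, at 1.13 against 1.30 and 1.00. The cause of the split was not tested.

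Hspg2 read 549, 455 and 510 at E9.5, 641, 804 and 629 at E12 and 868, 1704 and 1794 at P0, and was 2.75-fold higher at P0 than at E9.5 (adjusted p = 0.0012). Markers of other cell types were present to different degrees. Of 10 fibroblast genes the summed index was 2960 to 3930 at E9.5, 9920 to 10900 at E12 and 19400 to 25700 at P0, genes that glia can express too, with Lum at the floor at P0. Macrophage markers (13 genes) summed to 1840 to 2200 at E9.5, 2910 to 5620 at E12 and 1960 to 2310 at P0, with Fcer1g and Lyz2 at the floor at each of these stages. Erythroid markers summed to 3320 to 10600 at E12 and to 1970 to 2350 at E9.5. Neuron markers summed to 1520 to 2470 at E18 and 1940 to 2800 at E16, the stages with the lowest and the highest array, with Elavl4, Isl1 and Syt1 at the floor at all stages. Endothelial markers summed to 1470 to 2100 at P0 and 1780 to 2390 at E16. The part of such cells in the chaperone results was not tested.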

How the data were processed

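RNA of sorted crest and Schwann cells was hybridised to Affymetrix mouse arrays after 2 rounds of in vitro transcription, per the labels. Per the labels, dChip served the authors for spline normalization of the arrays (19 are analysed here), for sensitivity indices of the probes from 18 arrays, and for the deposited model-based expression index, a linear intensity. Its version was not stated there. Protocols are missing from the labels of E9.5 replicates 2 and 3. Genes come from the array's annotation (10833 probe sets with 1 symbol, 396 with several, 1193 with none, 66 controls left out). Another 2 probe sets whose several symbols include a member were left out.

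Values under the 25th percentile, 68.5, were set to that floor, log2 was taken, and a probe set had to exceed the floor on 3 arrays or more to be tested, as 10414 did. One limma 3.58.1 model (R 4.3.3) held a mean per stage, with 13 residual degrees of freedom. P-values are 2-sided and Benjamini-Hochberg adjusted over all probe sets tested, with a threshold of 0.05. The fit was tested on simulated data. A fold whose lower stage had an array at the floor is written "at least". The number of arrays limits the precision, and since the labels name no separate animals or litters, p-values cover only the spread between these samples, which may be technical.

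Each comparison names up to 10 rises and 10 falls among called members. Up to 6 genes per class are described, by the smallest p over the 6 stages. Members, classes and lists were chosen with earlier results of these data known. Alternatives covered the floor, the filter, quantile normalization, the GAPDH signal, array weights, lot and replicate number, the stages fitted and single arrays. The lot, 1 to 4, equals the replicate number except for E16 replicate 2, of lot 1. Same-numbered arrays of different stages had a mean correlation of deviations of 0.022 over 38 pairs, 15 of them over 0.1, so the numbers were not taken to pair samples.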

Additional observations from a re-analysis of the deposited data

Results flagged for a closer look

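Among 89 tested probe sets, 2 had an array far from the others of its stage at E16, the only stage with 4 arrays, and chance gives this for about 1 in 20 groups. For Tcp1 on 162443_at, E16 replicate 3 read 96.9 and the other 3 arrays were at the floor, so the gap to the nearest array over the whole range was 1. For Pdia5, E16 replicate 4 read 293 and the nearest other array 576, within a range of 293 to 620, a ratio of 0.9.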

How the results depend on the processing

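Of 1530 alternative values for 51 results on single probe sets, 1392 kept direction and side of the threshold, 138 kept the direction but lost the call and 0 reversed, and 12 results were called under every alternative. With array weights there were 37 calls for E12 against E9.5, 20 for E14 against E12, 13 for E16 against E14, 13 for E18 against E16, 18 for P0 against E18, 45 for P0 against E12, 72 over 6 stages and 61 over the nerve stages. Fitting only the stages compared gave 25 for E12 against E9.5, 0 for E16 against E14, 3 for P0 against E12 and 14 for P0 against E9.5, with fewer residual degrees of freedom. The GAPDH covariate gave 13 for P0 against E12 and 13 for P0 against E9.5, and for E12 against E9.5 11 higher and 4 lower. Quantile normalization gave 3 for P0 against E18, and 7 higher and 14 lower for E12 against E9.5. A floor at the 10th percentile gave 11 higher and 6 lower for E12 against E9.5. Leaving out arrays of lot 1 at E16 and P0 gave 0 for E16 against E14 and 15 for P0 against E12. The lot block and the replicate block each gave 1 for P0 against E18. The replicate block gave 16 for E12 against E9.5, 3 for E14 against E12, 3 for E16 against E14, 0 for E18 against E16, 24 for P0 against E12, 48 for P0 against E9.5, 52 over 6 stages and 24 over the nerve stages. The cause of these shifts was not tested, and the shares of all tested probe sets under these alternatives are not given here. Leaving out 1 array at a time gave 5 to 21 calls for E12 against E9.5, 1 to 3 for E14 against E12, 0 to 3 for E16 against E14, 0 to 0 for E18 against E16, 0 to 19 for P0 against E18, 11 to 40 for P0 against E12, 33 to 51 for P0 against E9.5, 32 to 55 over 6 stages and 10 to 35 over the nerve stages. Signals near the floor, as for Hspb1, limit what can be said.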
